A study of Mus musculus with 2 samples.

Results

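Filip1, Ezr, Rdx, Msn, Tagln, Myl9, Cnn2, Tpm1, Myo10 and Flna are 10 genes, of 31053 in the tables, whose proteins link actin filaments to each other or to the plasma membrane, or carry actin-based contraction. Rows were taken by gene symbol, and all 10 symbols had 1 row each. The group was put together with the values of these libraries in view, so all levels and ratios below are descriptions, and no test was made on them.

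Single-cell RNA-seq was carried out on mouse eyecups (retina and lens, with blood) at E13.5. The control library came from a Six3+/-;Six6+/- embryo and the DKO library from a Six3F/F;Six6-/-;a-Cre embryo, which gives 1 library per genotype and no replicate. Six3 and Six6 encode homeodomain transcription factors of the early eye field and the retina. Their loss was compared with the control to ask how multipotent retinal progenitor cells are maintained and differentiate.

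Each library was made from the eyecups of a single embryo. a-Cre is driven by a retinal Pax6 enhancer and acts in the peripheral retina, so floxed Six3 is expected to be deleted in part of the DKO retina, whereas the Six6 null allele is in every DKO cell. Both groups carry a Six6 null allele, and the control is heterozygous for both genes and is not a wild type. The DKO embryo was picked by its fluorescent rosettes, and the control embryo was a littermate with normal eyes. The tables hold no Cre or reporter feature, so cells in which Cre acted cannot be marked directly.

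In textbook terms, actin under the plasma membrane forms the cell cortex, and belts of actin and myosin II near the apical surface of a neuroepithelium drive its bending and constriction. Ezrin, radixin and moesin (Ezr, Rdx, Msn), the ERM proteins, tie membrane proteins to cortical actin. Filamin A (Flna) crosslinks actin filaments, and filamin A interacting protein 1 (Filip1) binds filamin A and is known from the developing cortex, where it restrains the start of neuronal migration. Transgelin (Tagln), calponin 2 (Cnn2), tropomyosin 1 (Tpm1) and the myosin regulatory light chain Myl9 belong to the contractile set that is best known from smooth muscle, and myosin X (Myo10) carries cargo to the tips of filopodia. Genes of the smooth muscle set are classical targets of serum response factor, which binds a sequence called the CArG box.

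The genes lie at the following places in GRCm38 (mm10), in the gene annotation used here. Filip1 is ENSMUSG00000034898, chromosome 9 from 79815051 to 80012851, minus strand. Flna is ENSMUSG00000031328, chromosome X from 74223461 to 74249820, minus strand. The ERM genes lie apart from each other. Ezr is ENSMUSG00000052397, chromosome 17 from 6738041 to 6782784, minus strand. Rdx is ENSMUSG00000032050, chromosome 9 from 52047173 to 52088735, plus strand. Msn is ENSMUSG00000031207, chromosome X from 96096042 to 96168552, plus strand. The contractile genes are also spread over chromosomes, although Tagln and Tpm1 share chromosome 9 with Filip1 and Rdx. Tagln is ENSMUSG00000032085, chromosome 9 from 45929619 to 45936058, minus strand. Myl9 is ENSMUSG00000067818, chromosome 2 from 156775420 to 156781658, plus strand. Cnn2 is ENSMUSG00000004665, chromosome 10 from 79988584 to 79996062, plus strand. The remaining pair is as follows. Tpm1 is ENSMUSG00000032366, chromosome 9 from 67022590 to 67049406, minus strand. Myo10 is ENSMUSG00000022272, chromosome 15 from 25622525 to 25813673, plus strand. No exon of the 10 genes overlaps an exon of another gene on the same strand. On the opposite strand, exons of Ezr overlap Sytl3, those of Msn overlap Gm24718, and those of Tagln overlap Gm48529 and Pcsk7.

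RefSeq promoter windows (GRCm38.p6, 300 bases from 250 before to 50 after an annotated start) were found for 9 of the 10 genes, in 14 windows. No window was found for Tagln, so its promoter was not searched. The windows were searched on both strands for the CArG box, for the TEAD motif GGAATG, for the E-box CANNTG and for the homeodomain core TAAT. A CArG box was in 3 of 14 windows, against 1.63% of all 32851 promoter windows. The TEAD motif was in 3 of 14 windows (14.7% of all), the E-box in 8 (72.3% of all) and TAAT in 9 (58.0% of all). A match is a description of the letters, not a binding site. The 3 windows with a CArG box belong to Myl9, Cnn2 and the second of 4 listed starts of Filip1, and their 250 bases before the start are printed because 2 of them are contractile genes and the third is the gene with the largest ratio of the 10. Bases are counted back from the start, and capitals mark the CArG box.
Myl9 (chr2:156775214-156775463, plus strand, CArG box from -161 to -152): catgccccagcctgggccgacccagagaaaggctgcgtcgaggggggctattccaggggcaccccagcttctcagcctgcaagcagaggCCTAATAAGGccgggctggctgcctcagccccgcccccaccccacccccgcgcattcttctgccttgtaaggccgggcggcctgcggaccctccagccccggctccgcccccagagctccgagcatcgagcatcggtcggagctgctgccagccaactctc
Cnn2 (chr10:79988350-79988599, plus strand, CArG box from -56 to -47): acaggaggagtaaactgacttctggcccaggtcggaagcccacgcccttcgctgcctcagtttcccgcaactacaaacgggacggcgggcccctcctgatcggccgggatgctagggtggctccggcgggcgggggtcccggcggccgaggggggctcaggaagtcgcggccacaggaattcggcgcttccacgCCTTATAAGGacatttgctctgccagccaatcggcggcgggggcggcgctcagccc
Filip1 (chr9:79977883-79978132, minus strand, CArG box from -115 to -106): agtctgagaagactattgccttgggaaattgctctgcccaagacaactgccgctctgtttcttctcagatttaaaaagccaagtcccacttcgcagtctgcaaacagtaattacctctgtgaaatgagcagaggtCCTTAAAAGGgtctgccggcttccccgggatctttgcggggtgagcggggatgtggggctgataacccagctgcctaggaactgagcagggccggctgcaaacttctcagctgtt
In the Myl9 window, a TAAT match overlaps the CArG box. The tables count 3' UMIs per gene and do not tell which of the 4 Filip1 starts was used.

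The control table held 10315 cells and 85589515 UMIs, and that of the DKO library 12672 cells and 85173276 UMIs. After the filters of the study, 9822 and 12146 cells were kept, with medians of 7620.0 and 5879 UMIs per cell. Between the libraries, 22 barcodes were shared. Xist was near 0 and Y-linked genes were detected in both libraries, so the X-linked Msn and Flna were compared between embryos of the same sex. As a check of the labels in naive progenitor-like cells, Six6 had 369 CPM in the control and 45.5 CPM in the DKO library, and Six3 had 311 and 232 CPM.

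Cells were clustered without the 10 genes, and clusters were named from marker genes. Naive progenitor-like cells (3257 control and 3278 DKO cells) are cycling retinal progenitors. Margin or pigment-like cells (1070 and 1239) were named from markers of the ciliary margin and the pigment epithelium, and they also had naive markers. Neurogenic-like cells (1404 and 1563) are progenitors that turn to neurons, and the neuronal class (1187 and 2314) joins ganglion-like, photoreceptor-like and amacrine or horizontal-like cells. A level is the sum of UMIs of a gene over the cells of a class per 1000000 UMIs of those cells (CPM), with its 95% Poisson interval in parentheses. A ratio is the log2 of the DKO level over the control level, with its 95% interval. Intervals cover counting error only, not the spread between cells or between embryos. A gene is called higher or lower where it differed at least 1.5-fold. To be called, it needed a minimum of 100 UMIs and 10 CPM in the cells of the class in 1 of the libraries.

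Among naive progenitor-like cells, 5 of the 10 genes were called higher in the DKO library and 0 lower: Filip1, Myo10, Tagln, Tpm1 and Ezr. Of all 8444 genes past the minimum in these cells, 3.65% were called higher and 1.82% lower. The median log2 ratio of the 10 genes was 0.50, beside 0.02 over all genes. In margin or pigment-like cells, 3 of the 10 genes were called higher (Filip1, Myo10 and Ezr) and 0 lower, beside 6.91% and 3.29% of 8611 genes, with medians of 0.23 and 0.02. In neurogenic-like cells, Filip1 and Myo10 were called higher and 0 genes lower, beside 4.63% and 3.44% of 8234 genes, and the median log2 ratio of the 10 genes was 0.01. In neuronal cells, 6 of the 10 genes passed the minimum on UMIs, and Filip1 was called higher and Msn lower, beside 5.33% and 2.71% of 8382 genes. Since the genes were chosen with these libraries in view, the counts describe them and support nothing further.

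**Figure D1:**
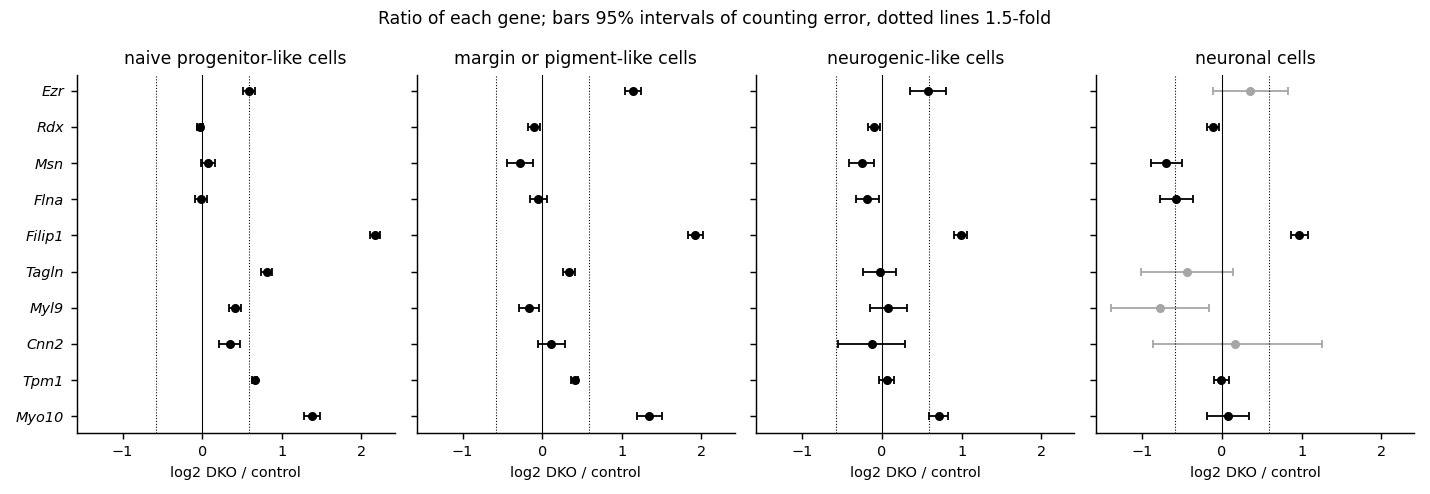
The horizontal axis is the log2 ratio of the DKO over the control library for each of the 10 genes (rows) in 4 classes of cells (panels), points are ratios, bars are 95% intervals of counting error, dotted lines mark 1.5-fold and gray points are genes under the minimum on UMIs. Filip1 lies right of the dotted line in all 4 panels, with ratios from 0.97 in neuronal to 2.17 in naive progenitor-like cells, and Rdx lies near 0 in all 4.

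Filip1, whose protein binds filamin A, had the largest ratio of the 10 genes in each of the 4 classes. Its level in naive progenitor-like cells was 72.2 (69.3 to 75.1) CPM in the control and 325 (318 to 331) CPM in the DKO library. The log2 ratio was 2.17 (2.10 to 2.24), or 4.50-fold, which was rank 46 from the top of 8444 genes. The 3 naive clusters, taken apart, gave log2 ratios of 2.01, 2.46 and 2.35, so no single cluster carried the difference. Filip1 in margin or pigment-like cells was at 113 (106 to 119.6) and 428 (416 to 441) CPM, a log2 ratio of 1.92 (1.83 to 2.02).

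Filip1 kept a higher DKO level after cells left the naive state, with a smaller ratio. In neurogenic-like cells it was at 174 (166 to 183) and 345 (333 to 358) CPM, with a log2 ratio of 0.99 (0.90 to 1.07). In neuronal cells it was at 99.99 (93.7 to 107) and 196 (189 to 203) CPM, with a log2 ratio of 0.97 (0.87 to 1.08). The ganglion-like clusters gave unequal ratios: cluster 5 went from 126 to 339 CPM (log2 ratio 1.43) and cluster 6 from 57.2 to 87.9 CPM (0.62). Amacrine or horizontal-like cells had 106 and 112 CPM of Filip1, and photoreceptor-like cells 154 and 143 CPM, both short of 1.5-fold. The order of the classes by Filip1 level also differed between the libraries. In the control, it was highest in neurogenic-like cells and lowest in naive progenitor-like cells, with margin or pigment-like and neuronal cells between, and in the DKO library it was highest in margin or pigment-like and lowest in neuronal cells.

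**Figure D2:**
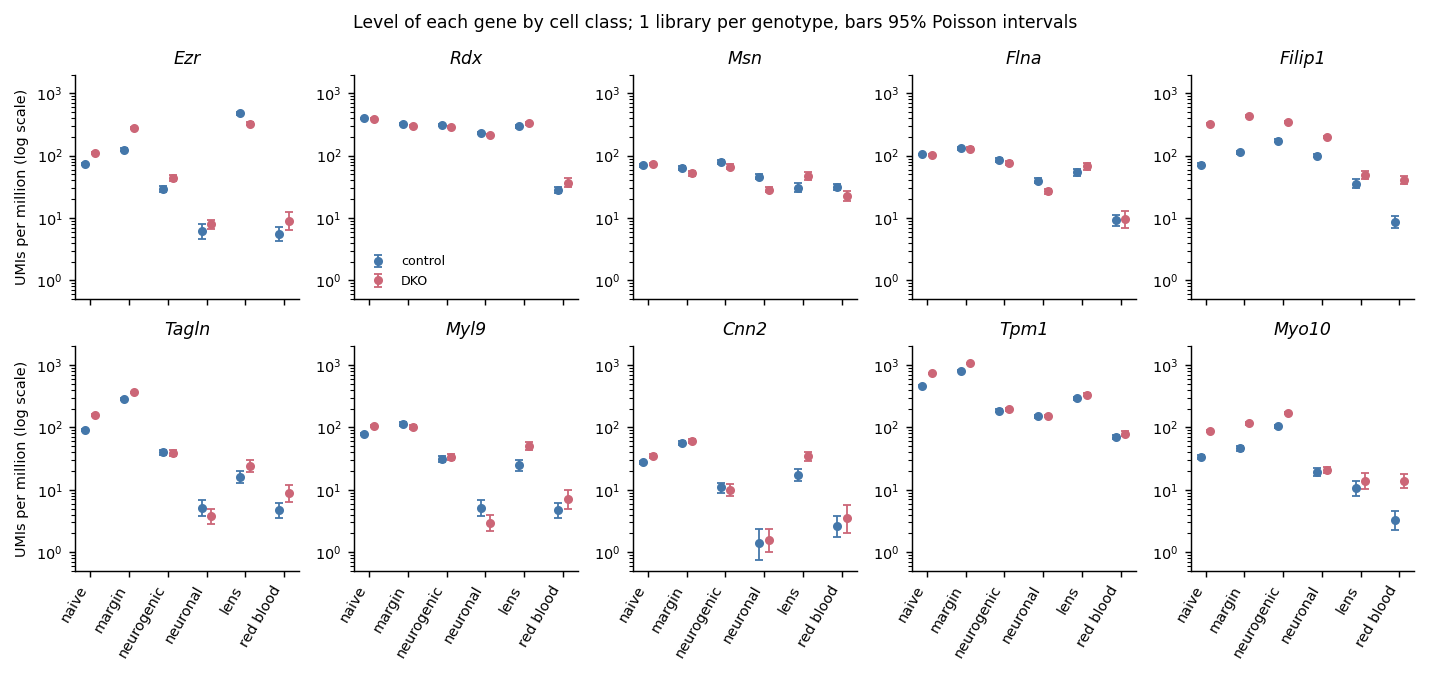
Each panel gives 1 gene, with the level in CPM (UMIs per 1000000) on a log axis for 6 classes of cells, blue for the control and red for the DKO library, and bars are 95% Poisson intervals. Filip1 goes from 72.2 to 325 CPM in naive progenitor-like cells, while Rdx stays between 213 and 399 CPM over the 4 retinal classes of both libraries.

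Flna, which encodes the partner of FILIP1, did not show this pattern at the RNA level. Naive progenitor-like cells had 105 (101 to 108) CPM in the control and 103 (99.8 to 107) CPM in the DKO library, a log2 ratio of -0.02 (-0.09 to 0.06). The ratio was -0.05 (-0.16 to 0.06) in margin or pigment-like cells and in neurogenic-like cells -0.18 (-0.33 to -0.04). In neuronal cells Flna was at 39.8 (35.8 to 44.0) and 26.7 (24.2 to 29.4) CPM, and its log2 ratio of -0.58 (-0.78 to -0.37) stayed just short of 1.5-fold lower. That difference was in ganglion-like cluster 5 (-0.65) and not in cluster 6 (0.02). In both libraries Flna was highest in margin or pigment-like cells, followed by naive progenitor-like, neurogenic-like and neuronal cells, with intervals that do not overlap between neighbours. Protein levels, on which FILIP1 is known to act, were not measured.

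Among the ERM genes, Ezr was called higher in DKO progenitors and margin cells, and Rdx and Msn were not. Ezr was at 124 (117 to 131) CPM in control and 274 (264 to 284) CPM in DKO margin or pigment-like cells, a log2 ratio of 1.14 (1.05 to 1.24). In naive progenitor-like cells it was at 74.3 (71.4 to 77.3) and 112 (108 to 115) CPM, with a log2 ratio of 0.59 (0.51 to 0.66). This is 1.501-fold and the smallest of the 308 calls made in these cells, so Ezr sits on the line there, with about as much of its interval under as over 1.5-fold. In neurogenic-like cells Ezr was at 29.4 (26.2 to 32.9) and 43.8 (39.5 to 48.5) CPM (log2 ratio 0.58, 0.36 to 0.80, just under 1.5-fold), and in neuronal cells at 6.18 and 7.90 CPM.

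Ezrin is known from pigment epithelium, so the margin or pigment-like class was also taken without cells that had 3 or more UMIs of pigment genes. In the remaining 1011 control and 942 DKO cells, Ezr was at 124 and 227 CPM, a log2 ratio of 0.88 (0.77 to 0.99). Filip1 had a log2 ratio of 1.74 in the same cells. Both differences were thus present in cells with few or no pigment UMIs.

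Rdx had nearly the same level in both libraries. In naive progenitor-like cells it was at 399 (392 to 405) and 391 (384 to 398) CPM, with a log2 ratio of -0.03 (-0.06 to 0.01), and in the other 3 classes its log2 ratio was from -0.11 to -0.10. From high to low, the order of Rdx levels was the same in both libraries: naive progenitor-like, margin or pigment-like, neurogenic-like and neuronal cells, where the intervals of margin or pigment-like and neurogenic-like cells overlap in each library, with 326 (314 to 337) and 305 (295 to 316) CPM in the control and 303 (292 to 314) and 285 (274 to 297) CPM in the DKO library. Msn, the moesin gene, was at 69.7 (66.9 to 72.7) and 73.2 (70.1 to 76.4) CPM in naive progenitor-like cells (log2 ratio 0.07, -0.02 to 0.16). In the control it was highest in neurogenic-like cells, at 79.7 (74.4 to 85.3) CPM, and the levels of naive and margin or pigment-like cells overlapped within their intervals. Msn was lower in DKO neuronal cells, at 46.3 (42.01 to 50.8) and 28.4 (25.8 to 31.2) CPM, with a log2 ratio of -0.70 (-0.90 to -0.51). Both ganglion-like clusters showed it, with log2 ratios of -0.46 in cluster 5 and -0.70 in cluster 6.

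The contractile genes were highest in margin or pigment-like cells of both libraries, except for Myl9 in the DKO library, and lowest of the 4 classes in neuronal cells. Tagln was at 89.7 (86.5 to 93.0) CPM in control and 157 (152 to 162) CPM in DKO naive progenitor-like cells, a log2 ratio of 0.81 (0.74 to 0.88). Among margin or pigment-like cells it was at 288 (277 to 298) and 363 (352 to 375) CPM, and its log2 ratio of 0.34 (0.27 to 0.41) was short of 1.5-fold. In neurogenic-like cells the log2 ratio was -0.03 (-0.24 to 0.18), and the neuronal levels were 5.12 and 3.76 CPM. For Tagln the difference was thus seen in naive progenitor-like cells, whose DKO level lay between the naive and the margin or pigment-like level of the control.

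Tpm1, which encodes a tropomyosin that lies along the actin filament, followed the same line. It was at 465 (458 to 473) and 735 (725 to 745) CPM in naive progenitor-like cells, a log2 ratio of 0.66 (0.63 to 0.69). In margin or pigment-like cells it was at 811 (793 to 829) and 1075 (1056 to 1095) CPM, with a log2 ratio of 0.41 (0.37 to 0.45). Neurogenic-like and neuronal cells had log2 ratios of 0.06 and -0.01.

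Myl9 and Cnn2 were not called in any of the 4 classes. Myl9, a light chain of myosin II, was at 78.2 (75.2 to 81.2) and 104 (99.9 to 107) CPM in naive progenitor-like cells (log2 ratio 0.41, 0.33 to 0.48). Its log2 ratio had the opposite sign in margin or pigment-like cells, -0.17 (-0.29 to -0.05). That sign depended on the processing: over 15 alternatives the ratio was from -0.29 to 0.99 and below 0 in 10. Cnn2, an actin-binding calponin, was at 27.4 (25.7 to 29.3) and 34.8 (32.7 to 37.1) CPM in naive progenitor-like cells (log2 ratio 0.35, 0.21 to 0.48) and had a log2 ratio of 0.11 (-0.05 to 0.28) in margin or pigment-like cells. In neuronal cells both were under the minimum, from 1.39 to 5.12 CPM over both genes and libraries.

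Myo10, the motor of filopodia, was called higher in the same 3 classes as Filip1 outside neurons. It was at 33.5 (31.6 to 35.6) and 87.2 (83.8 to 90.7) CPM in naive progenitor-like cells, a log2 ratio of 1.38 (1.28 to 1.48). In margin or pigment-like cells it was at 45.9 (41.8 to 50.3) and 116 (109.9 to 123) CPM (1.34, 1.18 to 1.501), and in neurogenic-like cells at 104 (97.9 to 110.4) and 170.0 (161 to 179) CPM (0.71, 0.59 to 0.82). Neurons of both libraries had little Myo10, 19.6 and 20.7 CPM, with a log2 ratio of 0.07 (-0.19 to 0.34). In the control Myo10 was highest in neurogenic-like cells, as was Filip1.

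The naive calls depended on how naive cells were chosen. When cells were chosen by a gate on the marker UMIs of each cell, the log2 ratio in naive cells was 0.99 for Filip1, 0.40 for Myo10, -0.22 for Ezr, -0.03 for Tagln and -0.14 for Tpm1, so 1 of 10 genes was called. When the libraries were merged without integration, the ratios were 0.89, 0.38, 0.16, 0.23 and 0.05, and again 1 of 10 was called. Filip1 was called under both, and in all 18 alternatives tried for naive progenitor-like cells its log2 ratio was from 0.89 to 3.01. The 8 naive markers summed to 5014 CPM in control and 3607 CPM in DKO naive progenitor-like cells. The 19 margin or pigment markers summed to 311 and 666 CPM there, with 18 of 19 higher in the DKO library. The margin or pigment-like class shifted too. Its naive markers summed to 3208 CPM in the control and 1577 CPM in the DKO library. Its margin or pigment markers summed to 1252 and 3509 CPM, with 17 of 19 higher in the DKO library. What part these shifts have in the ratios of the 10 genes was not tested.

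**Figure D3:**
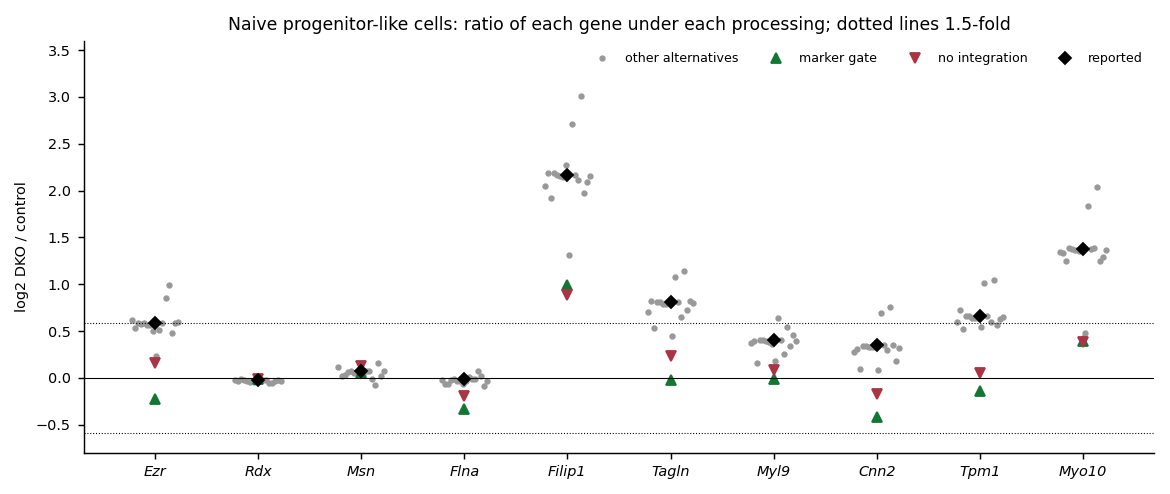
The vertical axis is the log2 ratio of the DKO over the control library in naive progenitor-like cells for each of the 10 genes, with a black diamond for the reported value, gray dots for other alternatives, a green triangle for the marker gate and a red triangle for libraries merged without integration, and dotted lines at 1.5-fold. Filip1 stays above the upper dotted line throughout (0.89 to 3.01), while Ezr, Tagln and Tpm1 lie under 0 with the gate.

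The share of cells with a UMI of a gene was compared after thinning each cell to 2000 UMIs, since DKO cells were shallower. Cells with fewer UMIs were left out, 33 control and 40 DKO cells of the naive class. Filip1 was seen in 12.2% (11.1% to 13.4%) of the control and in 38.2% (36.5% to 39.9%) of the DKO naive progenitor-like cells, and without thinning in 37.4% and 66.8%. As a background, red blood-like cells, which should lack Filip1, had it in 0.961% and 3.82% of cells, with 1 shallow cluster rich in called doublets among them. Median depths were 8838 and 7524.5 UMIs in naive progenitor-like cells and 8112 and 5766.5 in red blood-like cells. At the same depth, Filip1 was thus in more DKO than control cells.

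The other genes moved less in share. For naive progenitor-like cells, the share with Myo10 was 6.36% (5.54% to 7.26%) in the control and 14.3% (13.1% to 15.6%) in the DKO library, that with Tagln 13.3% (12.2% to 14.6%) and 19.2% (17.9% to 20.6%), and that with Tpm1 53.1% (51.4% to 54.8%) and 63.3% (61.6% to 64.9%). Ezr was in 13.2% (12.0% to 14.4%) and 16.1% (14.9% to 17.4%) of these cells, and Rdx in 54.7% and 54.8%. For Ezr the wider gap was in margin or pigment-like cells, at 19.5% (17.2% to 22.05%) in the control and 38.8% (36.0% to 41.6%) in the DKO library, where Filip1 was in 17.7% and 50.3%. Unthinned, Ezr was in 55.0% and 73.4% of them. In red blood-like cells, the shares of Ezr were 1.14% and 1.91%, those of Tagln 0.611% and 1.27% and those of Myo10 0.437% and 2.55%.

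Cells of the naive class were also split by cell cycle phase, which was called from scores on thinned cells. Filip1 was at 72.2, 69.2 and 76.0 CPM in control cells called G1, S and G2M, and at 581, 273 and 324 CPM in DKO cells. The log2 ratios were 3.01, 1.98 and 2.09. Control Filip1 was level over the phases, and the DKO level was highest in cells called G1. Among the DKO subclusters described below, G1 was called most often in subcluster 7, which also had the most Filip1, so phase and subcluster cannot be told apart. The ratio was also largest in G1 for Myo10 (2.04 against 1.25 in S and 1.29 in G2M), Tagln (1.14, 0.72 and 0.83), Tpm1 (1.04, 0.56 and 0.63) and Ezr (0.99, 0.48 and 0.59). These 5 genes kept their sign in all 3 phases. Rdx was within -0.06 and -0.03. G1 held 352 control and 416 DKO cells, the fewest of the phases.

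Since Six3 is deleted in part of the DKO retina, DKO cells were clustered alone, without Six3 and the 10 genes, and the subclusters whose Six3 level was below 50% of that in control cells of the same class were set apart as Six3-low. In the naive class, 1462 of 3278 DKO cells were Six3-low, with 106 CPM of Six3, beside 331 CPM in the other DKO cells and 311 CPM in the control. Filip1 was at 72.2 CPM in control, 209 CPM in other DKO and 472 CPM in Six3-low DKO cells, and the log2 ratio of Six3-low over other DKO cells was 1.17 (1.11 to 1.23). Filip1 thus stood above the control in both parts of the DKO library and was highest where Six3 was low.

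The steps between the 3 sets of cells differed from gene to gene. Each set of DKO cells sums subclusters that differed among themselves, as given below. Myo10 was at 33.5, 62.1 and 119 CPM in control, other DKO and Six3-low DKO cells, and Tpm1 at 465, 575 and 939 CPM, with log2 ratios within the DKO library of 0.94 (0.82 to 1.06) and 0.71 (0.67 to 0.75). Tagln was at 89.7, 132 and 189 CPM (0.51, 0.43 to 0.60) and Myl9 at 78.2, 89.3 and 122 CPM (0.45, 0.34 to 0.55). Cnn2 was level between control and other DKO cells, 27.4 and 27.5 CPM, and was at 44.2 CPM in Six3-low cells, where it reached 1.5-fold over the control. Ezr was at 74.3, 116 and 106 CPM, with a log2 ratio within the DKO library of -0.13 (-0.23 to -0.03), and its level in the other DKO cells was uneven between subclusters. Rdx, Msn and Flna were level over the 3 sets, with log2 ratios within the DKO library of 0.01 (-0.04 to 0.06), 0.01 (-0.11 to 0.14) and 0.05 (-0.05 to 0.16).

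**Figure D4:**
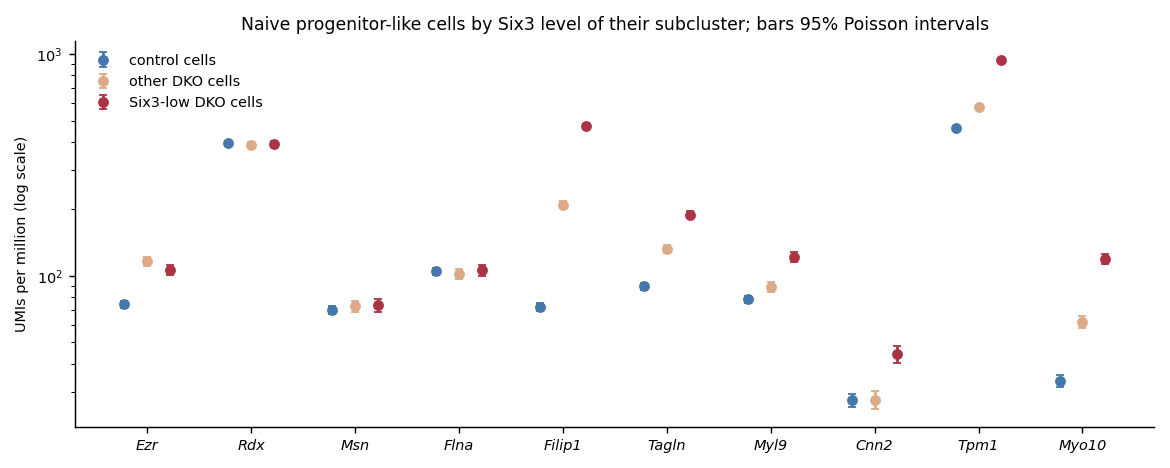
Levels of the 10 genes in CPM on a log axis in naive progenitor-like cells, with control cells in blue, DKO cells of other subclusters in tan and DKO cells of Six3-low subclusters in red, and bars are 95% Poisson intervals. Filip1 steps up from 72.2 to 209 and 472 CPM, Ezr is at 74.3, 116 and 106 CPM, and Rdx, Msn and Flna are level.

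The 6 DKO subclusters with at least 50 cells of the naive class show the same for Filip1 by group. The subclusters numbered 4 and 5 had Six3 at 335 and 482 CPM, at or above the control, and Filip1 at 131 and 119 CPM. In subclusters 7, 8 and 14, with Six3 at 101, 92.6 and 134 CPM, Filip1 was at 599.6, 448 and 377 CPM. Subcluster 9, at 172 CPM of Six3 and so just outside the limit, had 353 CPM of Filip1. Filip1 in all 6 was above the 72.2 CPM of the control, also where Six3 was not reduced.

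Myo10 and Tpm1 were split in the same way. Myo10 was at 39.4 and 44.1 CPM in subclusters 4 and 5 and between 94.3 and 152 CPM in the other 4, and Tpm1 was at 511 and 344 CPM against 783 to 1082 CPM. The control had 33.5 CPM of Myo10 and 465 CPM of Tpm1. Subcluster 9, counted with the other DKO cells, had 94.8 CPM of Myo10 and 857 CPM of Tpm1, so the levels of those cells as a whole rested largely on it. Tagln did not split by Six3: it was at 212 CPM in subcluster 4, at 55.8 CPM in subcluster 5 and between 123 and 262 CPM in the other 4. Nor did Myl9, at 136 and 68.5 CPM in subclusters 4 and 5 and between 81.5 and 175 CPM in the other 4. Cnn2 was at 34.0 and 13.3 CPM in subclusters 4 and 5 and between 33.1 and 61.1 CPM in the other 4, so it did not split cleanly. Of the cells of subcluster 4, 87.4% were called S, and of subcluster 7, 60.1% were called G1. In the other 5 subclusters, between 0.144% and 10.4% were called G1. Ezr stood apart in subcluster 9, at 208 CPM, where the margin or pigment markers summed to 1698 CPM, beside 215 to 596 CPM in the other 5. In subclusters 4 and 5, where Six3 was not reduced, Ezr was at 67.9 (59.9 to 76.7) and 56.6 (50.9 to 62.9) CPM, beside 74.3 CPM in the control, and in subclusters 7, 8 and 14 at 110.2 (99.3 to 122), 104 (95.8 to 112) and 106 (94.7 to 118) CPM. Ezr was thus lower in subclusters 4 and 5 than in the other 4, as were Myo10 and Tpm1. Unlike them, Ezr was highest in subcluster 9, which lay outside the Six3 limit and was counted with the other DKO cells. The Ezr level in other DKO cells as a whole rested on subcluster 9. The naive markers summed to 5672 and 6769 CPM in subclusters 4 and 5 and to 1697 to 2750.3 CPM in the other 4, so loss of naive markers and low Six3 cannot be told apart here.

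**Figure D5:**
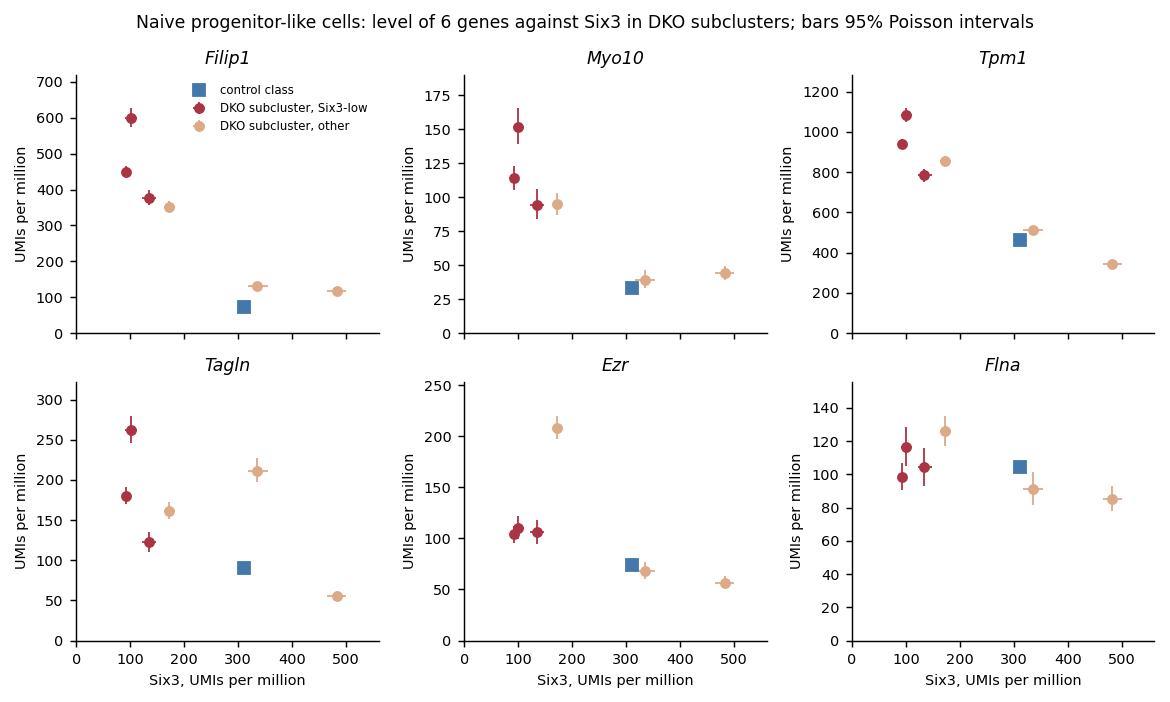
For 6 of the genes, the vertical axis is the level of the gene and the horizontal axis that of Six3, both in CPM, in the control naive progenitor-like class (blue square) and in 6 DKO subclusters (red for Six3-low, tan for other), and bars are 95% Poisson intervals. Filip1, Myo10, Tpm1 and Ezr are higher in the 4 subclusters with the least Six3 than in the other 2, Ezr is highest in subcluster 9 (208 CPM), and Flna varies between 85.3 and 126 CPM.

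Six3-low cells of the other classes were few. The 84 Six3-low cells of the margin or pigment-like class had Filip1 at 411 CPM, next to 429 CPM in other DKO cells of the class, and less Ezr, 144 against 281 CPM. In this class Six3 was at 104 CPM in Six3-low, 150 CPM in other DKO and 232 CPM in control cells. The other DKO cells were thus under the control level of Six3 too. Myl9 and Cnn2 were at 226 and 136 CPM in the 84 Six3-low cells, against 94.1 and 56.4 CPM in other DKO cells. The class also held 31 DKO cells of a mesenchyme-like cluster, found at a finer resolution, with Myl9 at 296 CPM and Cnn2 at 243 CPM. How many of these were among the 84 cells was not counted. In the 62 Six3-low cells of the neurogenic-like class, the contractile genes were higher than in other DKO cells of the class, with Tpm1 at 618 against 173 CPM and Tagln at 126 against 35.1 CPM. The limit was set on whole subclusters, and these 62 cells still had 196 CPM of Six3. Other DKO cells of the class had 286 CPM and control cells 305 CPM. The naive marker Sfrp2 (291 against 130 CPM) and the margin marker Wls (111 against 19.5 CPM) were also higher in the 62 cells. What part the mix of cells has in these gaps was not tested. Neuronal cells had 51 Six3-low cells, with 377 CPM of Filip1 against 193 CPM.

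Other clusters give the range of these genes outside the 4 classes. Lens-like cells had more Ezr than any retinal class, 475 (456 to 495) CPM in the control and 327 (308 to 346) CPM in the DKO library (log2 ratio -0.54, -0.64 to -0.44, short of 1.5-fold). Myl9, Cnn2 and Msn were called higher in DKO lens-like cells, with log2 ratios of 1.06 (0.72 to 1.40), 0.97 (0.56 to 1.39) and 0.63 (0.31 to 0.96), beside 9.53% of 5248 genes, and 0 of the 10 were called lower, beside 3.09%. Macrophage-like cells had the most Msn, 342 and 239.7 CPM. Cluster 9 held 945 DKO cells and 1 control cell, was led by Rspo3, Eomes, Lhx9, Tbr1 and Uncx and stayed unnamed. It had Filip1 at 287 (271 to 303) CPM, Myo10 at 95.4 (86.5 to 105) CPM and Tpm1 at 112 (103 to 123) CPM. Its Tagln and Ezr were at 6.76 and 13.3 CPM. Filip1 and Myo10 in cluster 9 were thus near their levels in DKO naive progenitor-like cells, and Tpm1, Tagln and Ezr were far under theirs.

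In red blood-like cells, which should lack Filip1, its level was 8.61 (6.90 to 10.6) CPM in the control and 40.7 (35.0 to 47.0) CPM in the DKO library, a log2 ratio of 2.24 (1.87 to 2.62) where 40.5% of genes were called higher and 6.11% lower. Myo10 was at 3.33 and 13.8 CPM. Most of the Filip1 UMIs there came from cluster 12, 77 of 88 in the control and 158 of 183 in the DKO library, a cluster with medians of 943 and 1070.5 UMIs per cell and 24.3% called doublets. Without it, Filip1 was at 0.875 and 6.38 CPM in cluster 7 and at 2.38 and 7.56 CPM in cluster 11. The red blood-like levels of Ezr and Tagln in clusters 7 and 11 were between 1.46 and 6.30 CPM. Red blood-like cells give no background for all 10 genes: in control cells of cluster 7, Msn was at 31.3 CPM and Tpm1 at 43.7 CPM, while Rdx was at 4.81 CPM. The DKO level of Filip1 in naive progenitor-like cells was 325 CPM. The part of free RNA in the ratios of the retinal classes was not tested.

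Markers of cells that are rich in contractile genes were examined in the same classes. In naive progenitor-like cells the 15 markers of mesenchyme, pericytes and smooth muscle summed to 17.7 CPM in the control and 9.22 CPM in the DKO library, with 5 of 15 higher in the DKO library and Col3a1 at 0 in both. Their part in the Tagln and Tpm1 ratios was not tested. In margin or pigment-like cells the same markers summed to 48.5 and 108 CPM, with 11 of 15 higher in the DKO library. At a finer resolution, 31 DKO and 4 control cells formed a mesenchyme-like cluster. Its cells had Tagln at 392 CPM, Myl9 at 319 CPM, Cnn2 at 241 CPM and Tpm1 at 1320.3 CPM. Without these cells, the margin or pigment-like class still had 3 of 10 genes called higher and a median log2 ratio of 0.19. Lens markers summed to 265 CPM in control and 97.6 CPM in DKO naive progenitor-like cells, with Foxe3 at 0 in both, and lens-like cells had the highest Ezr level of all named classes in the control. The part of lens RNA in the Ezr ratio was not tested.

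The 10 genes were set beside 104 related genes of the actin cytoskeleton, among them ERM partners, filamins, tropomyosins, myosins, actins, crosslinkers and targets of serum response factor and of YAP. In naive progenitor-like cells, 77 of 104 passed the minimum, and their median log2 ratio was 0.07. Of these, 2 were called higher and 1 lower, beside 3.65% and 1.82% of all 8444 genes. The higher genes were Ctgf, a secreted matrix protein and common YAP target (19.1 and 38.6 CPM, log2 ratio 1.01, 0.87 to 1.16), and Tagln3, a neuronal transgelin (34.3 and 66.6 CPM, 0.95, 0.85 to 1.06). The lower gene was Mylk, which encodes myosin light chain kinase (28.9 and 11.6 CPM, -1.32, -1.50 to -1.14). In these cells most of the related genes were not called, which was also so over all genes.

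Of the related genes, 82 passed the minimum in margin or pigment-like cells, 3 were called higher and 2 lower, beside 6.91% and 3.29% of all 8611 genes. Tagln3 had a log2 ratio of 1.54 (1.37 to 1.72), Myo6, a myosin that moves to the minus ends of filaments, one of 0.89 (0.65 to 1.13), and Gsn, the severing protein gelsolin, one of 0.80 (0.34 to 1.27). Among the lower genes, Tagln2, another transgelin, had a log2 ratio of -0.61 (-0.85 to -0.38). Of 69 related genes in neurogenic-like cells, 6 were called higher and 3 lower, beside 4.63% and 3.44% of all 8234 genes. Of 63 in neuronal cells, 0 were called higher and 8 lower. Over all genes in neuronal cells, 5.33% were called higher and 2.71% lower. The lower genes were Cald1, Myl12a, Myo1e, Actn1, Vcl, Zyx, Csrp1 and Tgfb1i1. Of the 10 genes, Msn was called lower and Filip1 higher in the same cells. In ganglion-like cells alone, 1 related gene was called higher (Myo6) and 5 lower, and Cald1, Actn1 and Zyx were not called. Ganglion-like clusters 5 and 6 held 612 and 361 control cells and 1048 and 960 DKO cells. What part this mix has in the neuronal ratios was not tested.

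Finally, genes with like patterns were looked up over 37 profiles, each a cluster of 1 library with at least 50 cells, by Pearson's r of log2(CPM + 10). The profiles share libraries and depth, so r is a description. Among 6506 genes, those most like Filip1 were Zswim5 (r = 0.89), A730017C20Rik (0.89) and H2-Ke6 (0.88). Those most like Ezr were Ccnd2 (0.96), Phgdh (0.95) and Sparc (0.94), and those most like Tagln were Myl9 (0.94), Bmpr1b (0.93) and Fst (0.92). Within the 10 genes, Filip1 was most like Myo10 (r = 0.86) and less like Flna (0.56). The 4 contractile genes had r from 0.78 to 0.94 with each other, and Ezr was most like Cnn2 (0.77) and less like Rdx (0.53) and Msn (0.32).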

How the data were processed

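Eyecups of 1 control and 1 DKO embryo at E13.5 were dissociated by the authors and made into droplet libraries that read the 3' ends of transcripts. Per the labels, reads were processed with Cell Ranger 3.1.0 against mm10, and the deposited tables hold counts, that is, UMIs per gene and cell without normalization. 0 other columns of values were present.

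The cell filters of the study were applied (more than 200 and less than 6000 genes, mitochondrial UMIs below 20%). The libraries were integrated and clustered in R 4.3.3 with Seurat 5.3.0 (2000 variable features, 20 dimensions, resolution 0.5). The 10 genes, the related genes, 48 genes named by the study, Six3, Six6, hemoglobin genes, Xist, Tsix and Y-linked genes did not enter as features. A cluster was named where at least 75% of a marker list was above the other cells with a median log2 difference of at least 0.5, at least 3 markers were detected, and no other class had more markers among the 10 leading genes. A cluster of low depth also needed 2 own markers there, and clusters with over 50% doublets stayed unnamed. These limits were set after clusters had been seen, and class sizes need not be those of the study. Cluster 3 (few UMIs), cluster 9 and cluster 15 (doublets) stayed unnamed. Scrublet, run through scanpy 1.11.5, scored doublets, which were kept.

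UMIs were summed per class and library with Python 3.11.15, numpy 2.4.6 and pandas 2.3.3. Exact intervals came from scipy 1.17.1 (Poisson for levels, binomial for shares, and for ratios the binomial interval of the DKO share of UMIs). The ratio interval was tried on counts simulated from a Poisson law, which it assumes, so that trial does not cover the spread between cells. Figures were drawn with matplotlib 3.10.9. With 1 library per genotype no test was made. Totals of the named classes were from 301573 UMIs (macrophage-like control cells) to 32753459 UMIs (naive progenitor-like control cells), so low levels in small classes are the least precise.

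The members, lists and marker genes were chosen with earlier results of these data known. All 10 genes are named. Related genes are named where they passed 1.5-fold in naive or in margin or pigment-like cells, up to 4 per direction, and for Filip1, Ezr and Tagln the 3 genes with the highest r among those with at least 50 CPM in 1 profile. The 8 related genes lower in neurons and the leading genes of cluster 9 were picked with their values in view. The alternatives changed the features (no gene left out), the resolution (0.3 and 1), the integration (none), the choice of cells (a marker gate, no doublets, a minimum of 1000 genes, single phases, Six3-low cells), the totals, minimums and scale, and the thinning (1000 or 4000 UMIs). Adding cluster 3, 9 or 15 to a class and leaving out mesenchyme-like cells were chosen after seeing the data. 1 related gene past the limit is not reported here. Reads and the bulk data of the study were not analysed here.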

Additional observations from a re-analysis of the deposited data

Results flagged for a closer look

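The log2 ratio of Msn was 0.63 (0.31 to 0.96) in lens-like cells, at 30.7 CPM in the control and 47.6 CPM in the DKO library, and -0.70 (-0.90 to -0.51) in neuronal cells, at 46.3 and 28.4 CPM. It drew attention because both differences passed 1.5-fold in opposite directions. With 1 library per genotype, the difference between the classes was not tested. In lens-like cluster 13 the log2 ratio was 0.68 and in cluster 14 it was 0.05, so the lens value came mostly from cluster 13.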

How the results depend on the processing

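No paired analysis was possible because there was 1 library in each genotype. No library could be left out for the same reason. Of 546 values of single genes under alternatives, 390 moved by less than their interval, 153 moved and 3 reversed, and of 122 medians and counts 87 held and 35 moved. A count close in fold to the reported count was also taken as held, so a held count need not be equal. Reversed means a change of sign in a ratio reported at 1.5-fold or more, so sign changes of smaller ratios are not among the 3. For example, Myl9 in margin or pigment-like cells (reported -0.17) was below 0 in 10 of 15 alternatives. Cnn2 in naive progenitor-like cells (reported 0.35) was below 0 in 2 of 18. The 60 alternative shares all moved, since they count UMIs at another depth. Causes were not tested. The reported median log2 ratios of the 10 genes were 0.50 in naive progenitor-like, 0.23 in margin or pigment-like, 0.01 in neurogenic-like and -0.06 in neuronal cells, with 5, 3, 2 and 1 genes called higher. With clustering resolution 0.3, the median was 0.41 in margin or pigment-like, -0.19 in neurogenic-like and -0.32 in neuronal cells and the count was 5 in margin or pigment-like, 1 in neurogenic-like and 0 in neuronal cells. With libraries merged without integration, the median was 0.10 in naive progenitor-like cells and the count was 1 in naive progenitor-like and 2 in neuronal cells. With all genes used for clustering, the median was 0.34 in naive progenitor-like and -0.32 in neuronal cells and the count was 2 in naive progenitor-like and 0 in neuronal cells. With mean counts per 10000 on a log2 scale with 1 added, the median was 0.20 in naive progenitor-like and 0.093 in margin or pigment-like cells and the count was 1 in naive progenitor-like and 1 in neurogenic-like cells. With classes from a gate on marker UMIs of each cell, the median was -0.021 in naive progenitor-like, 0.54 in margin or pigment-like and -0.30 in neuronal cells and the count was 1 in naive progenitor-like and 5 in margin or pigment-like cells. With DKO cells of Six3-low subclusters alone, the median was 0.67 in naive progenitor-like, 0.73 in margin or pigment-like, 1.64 in neurogenic-like and 0.28 in neuronal cells and the count was 6 in margin or pigment-like, 7 in neurogenic-like and 2 in neuronal cells. With cells of G1 alone, the median was 0.87 in naive progenitor-like cells. With cells of S alone, the median was 0.42 in naive progenitor-like cells and the count was 3 in naive progenitor-like cells. With the DKO-rich unnamed cluster added, the count was 2 in neuronal cells. With the cluster of called doublets added, the median was 0.39 in neuronal cells and the count was 3 in neuronal cells. With classes from a gate on marker UMIs of each cell, the log2 ratios of Ezr (-0.22), Tagln (-0.026), Tpm1 (-0.14) in naive progenitor-like cells changed sign. The few cells limit the margin, neurogenic and neuronal values from Six3-low cells. Filip1 was called higher in all 18 alternatives for naive, 15 for margin or pigment-like and 13 for neurogenic-like cells, and in 13 of 15 for neuronal cells. The log2 ratio of Rdx in naive progenitor-like cells was within -0.06 to -0.01.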
